A study of Mus musculus with 12 samples.

Results

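The 8 transcripts described here encode hormones and neuropeptides of the pituitary gland and the hypothalamus: growth hormone (Gh), prolactin (Prl), pro-opiomelanocortin (Pomc), vasopressin (Avp), oxytocin (Oxt), thyrotropin-releasing hormone (Trh), hypocretin (Hcrt, also called orexin) and pro-melanin-concentrating hormone (Pmch). They were chosen as the probe sets whose only gene symbol in the platform annotation is that of such a hormone, and they are 8 of the 19938 genes that the annotation names with a single symbol. Each of the 8 had 1 probe set. They were selected on measured values, in that the wide spread of Gh between arrays drew attention to them, so that spread and the levels of Gh on single arrays are given as a description.

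The tissue was the anterior striatum, a forebrain region involved in reward, of Swiss CD-1 mice, which are outbred, all of them adolescent males with no engineered allele named. Total RNA was measured on 12 whole-transcript arrays in 4 groups of 3. All mice went through a 10-day conditioned place preference procedure, in which a compartment is paired with a drug given 15 minutes earlier. The groups were the combination (mephedrone with ethanol), mephedrone (a synthetic cathinone stimulant), ethanol and saline. Dose, hour of collection and array batch are not given in the sources used here. Nothing says whether each array came from a separate animal, so the p-values below rest on the spread between arrays of a group, which may be technical.

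Growth hormone and prolactin are made by somatotrophs and lactotrophs of the anterior pituitary, a gland that hangs below the hypothalamus at the base of the brain, outside the striatum. Pomc is the precursor of corticotropin and of melanocortins, and is made in the pituitary and in neurons of the arcuate nucleus. Avp and Oxt are made by large secretory neurons of the hypothalamus. Trh is made by hypothalamic neurons that drive thyrotropin release and by some other brain neurons. Hcrt and Pmch are made by neurons of the lateral hypothalamus that promote feeding and send axons to the striatum among many targets. The Hcrt neurons also promote wakefulness.

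Every value below is a log2 difference from the median of that gene over the 12 arrays, since the deposited table is centred in that way. A value of 1 is therefore a doubling against the middle of the 12 arrays, and a gene's absolute level is not in the table. The steps of the deposited numbers place the uncentred log2 values of Gh, Prl, Pomc, Avp, Trh, Hcrt and Pmch between 4 and 8 on at least some arrays, and those of Oxt between 8 and 16. Presence of a transcript above background could not be tested from such values. For the same reason the striatal identity of the tissue could be followed only as differences: the mean of 10 striatal projection neuron markers lay between -0.30 and 0.068 over the 12 arrays. It was lowest on combination replicate 3, at -0.30, and next lowest on ethanol replicate 1, at -0.18.

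Gh, the growth hormone of somatotrophs, stood at -0.30, -0.013 and -0.085 on the combination arrays (replicates 1, 2 and 3, the order used throughout). The mephedrone arrays read 0.61, 0.22 and 2.42, the ethanol arrays -0.44, -0.17 and -0.14, and the saline arrays 0.013, 0.83 and 1.47. Mephedrone replicate 3 was the highest, followed by saline replicates 3 and 2, while ethanol replicate 1 was the lowest. The distance between the highest and the lowest array was 2.85, which is a 7.23-fold difference. Both groups given ethanol were tight, at -0.13 ± 0.15 in the combination and -0.25 ± 0.16 with ethanol alone. Both groups without ethanol were spread widely, at 1.08 ± 1.17 with mephedrone and 0.77 ± 0.73 with saline (SD, n = 3 each).

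Prl, the prolactin of lactotrophs, stood at -0.044, 0.035 and -0.054 on the combination arrays and at 0.015, -0.015 and 0.51 on the mephedrone arrays. The ethanol arrays read -0.16, 0.061 and -0.15, and the saline arrays -0.051, 0.26 and 0.31. The 3 arrays highest in Prl were mephedrone 3, saline 3 and saline 2, in the same order as for Gh, and ethanol replicate 1 was again the lowest. The range of Prl was 0.67, a 1.59-fold difference, so its swing was smaller than that of Gh on the log2 scale. Group means were -0.021 ± 0.049 in the combination, 0.17 ± 0.29 with mephedrone, -0.083 ± 0.12 with ethanol and 0.17 ± 0.19 with saline (SD, n = 3 each).

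Over the 12 arrays Gh and Prl had a Pearson correlation of 0.939 and a Spearman correlation of 0.741. Without mephedrone replicate 3 and saline replicate 3, the arrays farthest from the median of Gh, the Pearson correlation was 0.763 over 10 arrays. With group means removed it was 0.932. These are descriptions of values that share the same arrays and the same RNA, and no test was made of them.

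**Figure D1:**
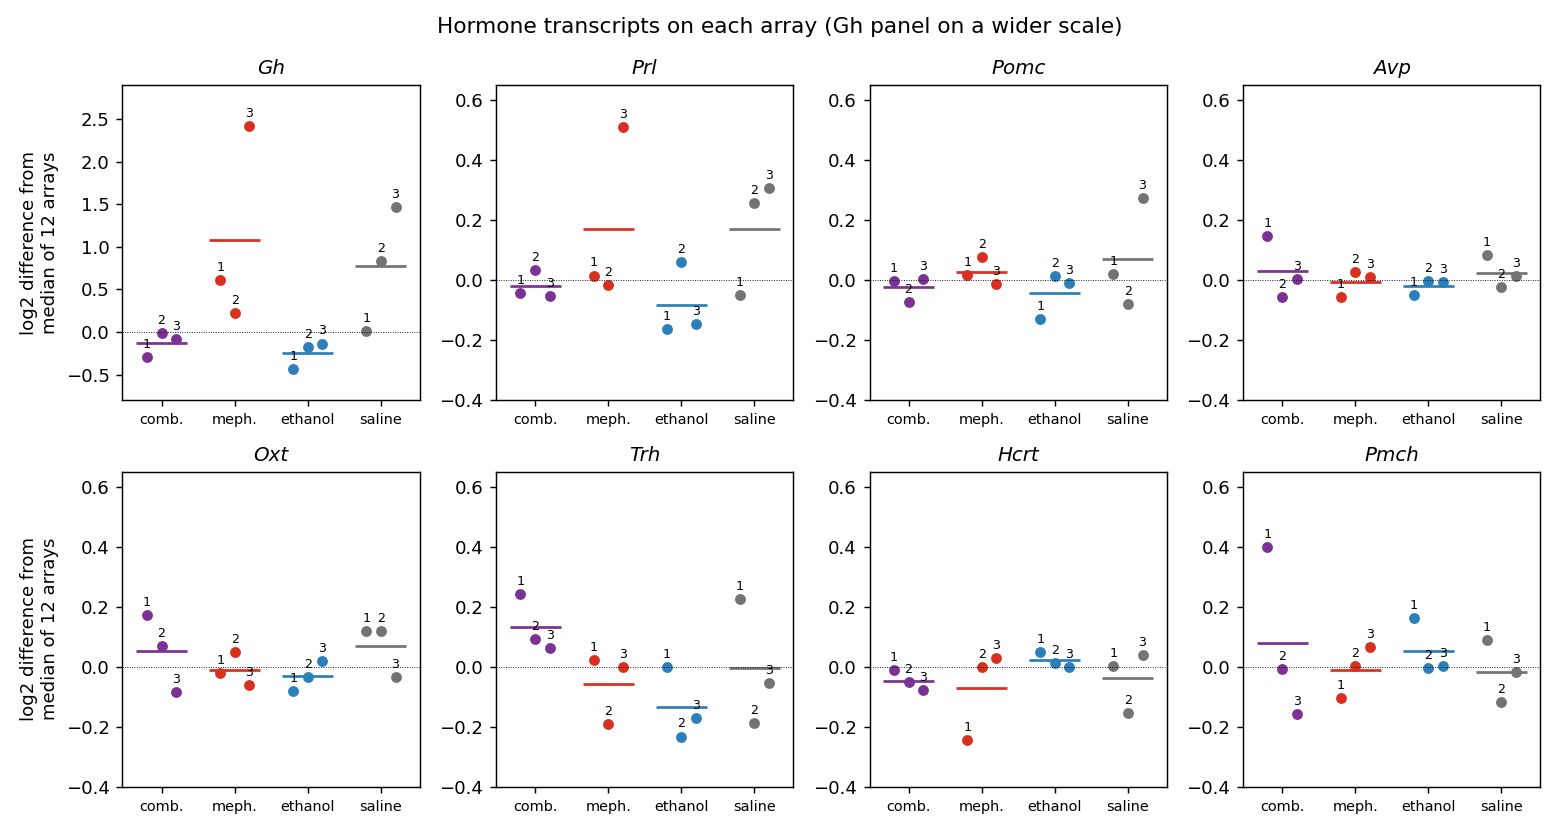
Log2 difference from the gene's median over 12 arrays (vertical axis) for the 8 hormone transcripts, by group (comb., combination; meph., mephedrone; n = 3 each), with a point per array numbered by replicate and a line at the group mean. Gh has a wider axis and reached 2.42 on mephedrone replicate 3, where Prl reached 0.51, while the other 6 transcripts stayed between -0.25 and 0.40.

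Cga, the alpha subunit shared by the pituitary hormones thyrotropin, luteinizing hormone and follicle-stimulating hormone, had its highest value on the same array as Gh and Prl. It stood at -0.015, -0.054 and 0.022 on the combination arrays and at -0.090, 0.010 and 0.52 on the mephedrone arrays. The ethanol arrays read -0.15, -0.010 and -0.037, and the saline arrays 0.081, 0.072 and 0.11. Mephedrone replicate 3 stood alone for Cga, with saline replicate 3 next. The Pearson correlation of Cga with Gh was 0.853 over 12 arrays, and 0.371 over 10 without mephedrone replicate 3 and saline replicate 3. Much of the Pearson value thus rested on those arrays. The Spearman correlation over 12 arrays was 0.664, and the Pearson correlation with group means removed was 0.812.

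The 250 bases before the annotated start of Prl and of Cga (RefSeq, build GRCm38.p6) are shown because these transcripts peaked with Gh on 1 array. Prl lies on the plus strand at chr13:27057320-27057569, and Cga on the plus strand at chr4:34893529-34893778. Capitals mark matches, on either strand, to TATNCAT, a core of the site of the pituitary factor Pit-1, and to TATAAA, the TATA box.
Prl: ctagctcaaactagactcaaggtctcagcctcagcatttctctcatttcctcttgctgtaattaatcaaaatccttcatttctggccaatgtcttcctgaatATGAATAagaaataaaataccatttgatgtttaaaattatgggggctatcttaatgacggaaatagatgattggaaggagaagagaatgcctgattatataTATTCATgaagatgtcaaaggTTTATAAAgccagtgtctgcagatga
Cga: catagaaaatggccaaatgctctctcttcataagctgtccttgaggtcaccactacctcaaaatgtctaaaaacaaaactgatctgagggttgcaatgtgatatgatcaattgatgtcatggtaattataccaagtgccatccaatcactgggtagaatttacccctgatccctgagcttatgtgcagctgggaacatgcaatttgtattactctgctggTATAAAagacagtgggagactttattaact
The Prl stretch held 2 matches to TATNCAT, at -148 to -142 on the minus strand and at -47 to -41 on the plus strand, counted from the start. Its run of capitals nearest the start holds TATAAA at -24 to -19 on the plus strand, overlapped by a match on the minus strand at -26 to -21. The Cga stretch held 0 matches to TATNCAT and a TATAAA at -30 to -25. Among 32851 promoter stretches of this length 7.92% held TATNCAT and 12.4% held TATAAA. Such a match is a run of letters and not a measured site of binding.

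The other transcripts of pituitary cells were nearly flat. Of 15 anterior pituitary markers 12 were measured, and Cga was the only one of those 12 with a range over 0.5. The widest of the other 11 was Pitx1, a pituitary transcription factor, at 0.35, and the narrowest range was 0.077. Cga and Tshb, the beta subunit of thyrotropin, were the 2 of 12 markers that were highest on mephedrone replicate 3, and Tshb reached 0.083 there. The mean of the 12 markers lay between -0.026 and 0.00078 on the combination arrays, -0.021 and 0.061 on the mephedrone arrays, -0.097 and 0.053 on the ethanol arrays, and -0.033 and 0.016 on the saline arrays. The highest of these 12 means, 0.061, was on mephedrone replicate 3 and the lowest, -0.097, on ethanol replicate 1, which were also the extremes of Gh. The first of these rested on Cga: over the other 11 markers, a mean taken after the values were seen, mephedrone replicate 3 stood at 0.019, below ethanol replicates 2 and 3 at 0.059 and 0.034, while ethanol replicate 1 was still the lowest at -0.092. The part of pituitary tissue in the Gh values was not tested.

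**Figure D2:**
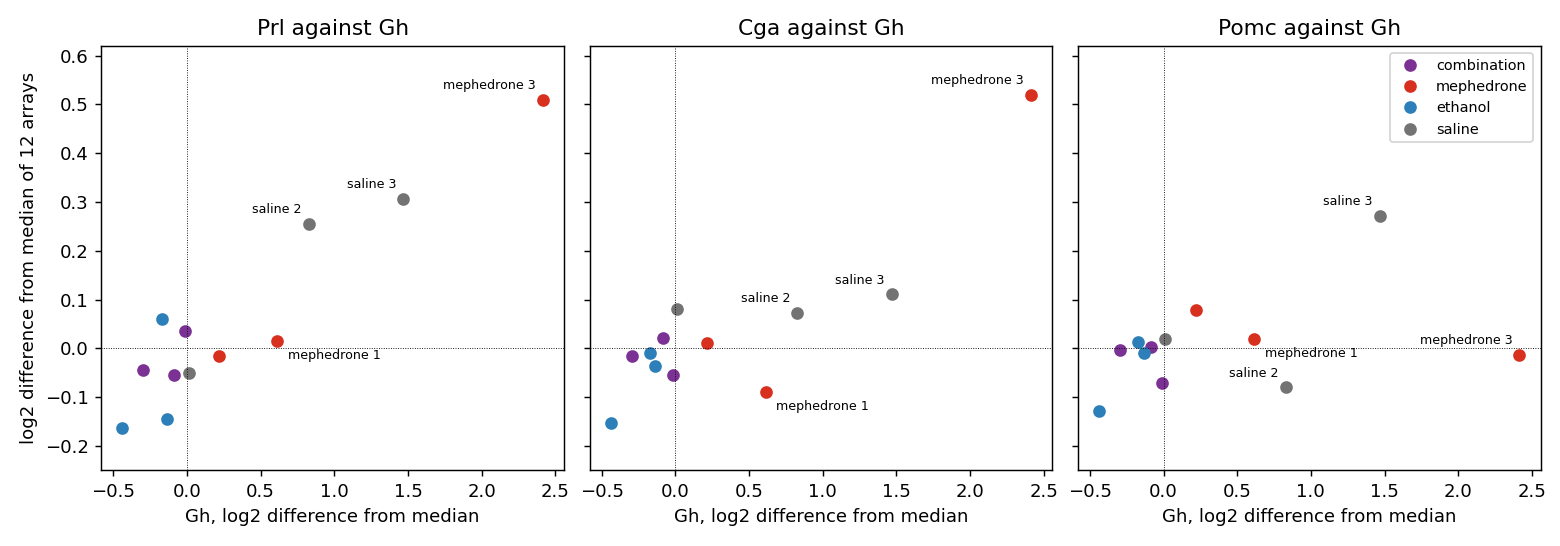
Prl, Cga and Pomc (vertical axes, log2 difference from the median) against Gh (horizontal axis, the same unit), with a point per array coloured by group. Prl climbed over mephedrone 1, saline 2, saline 3 and mephedrone 3, Cga stood out on mephedrone 3 alone, and Pomc was at -0.014 on that array.

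Pomc did not peak with Gh on mephedrone replicate 3. It stood at -0.0027, -0.072 and 0.0027 on the combination arrays and at 0.018, 0.078 and -0.014 on the mephedrone arrays. The ethanol arrays read -0.13, 0.012 and -0.0097, and the saline arrays 0.019, -0.080 and 0.27. Saline replicate 3 was therefore the highest for Pomc and ethanol replicate 1 the lowest, with a range of 0.40. The Pearson correlation of Pomc with Gh was 0.380 over 12 arrays and 0.131 over the 10 left without mephedrone replicate 3 and saline replicate 3.

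The hormones of the large secretory neurons varied little. Avp, the antidiuretic hormone, stood at 0.15, -0.058 and 0.0036 in the combination, -0.057, 0.026 and 0.0087 with mephedrone, -0.050, -0.0036 and -0.0056 with ethanol, and 0.084, -0.023 and 0.012 with saline. Its range of 0.20 (1.15-fold) was the smallest of the 8. Oxt, which drives milk ejection and acts in social behaviour, stood at 0.17, 0.069 and -0.085 in the combination, -0.019, 0.048 and -0.062 with mephedrone, -0.080, -0.033 and 0.019 with ethanol, and 0.12, 0.12 and -0.033 with saline. Both peaked on combination replicate 1, with saline replicate 1 second, and in both genes the 4 groups overlapped. The Avp and Oxt genes are neighbours, and their Pearson correlation was 0.576 over 12 arrays and -0.129 over 10 without combination replicate 1 and saline replicate 1.

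Trh had a range of 0.47 over the 12 arrays. It stood at 0.24, 0.094 and 0.064 on the combination arrays and at 0.021, -0.19 and -0.00013 on the mephedrone arrays. The ethanol arrays read 0.00013, -0.23 and -0.17, and the saline arrays 0.23, -0.19 and -0.054. All 3 combination arrays lay above all mephedrone arrays and above all ethanol arrays, but among the saline arrays replicate 1 lay beside the highest combination array. The means were 0.13 ± 0.095 in the combination, -0.056 ± 0.12 with mephedrone, -0.13 ± 0.12 with ethanol and -0.0048 ± 0.21 with saline (SD, n = 3 each).

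The transcripts of the lateral hypothalamus did not peak on the arrays highest in Gh. Hcrt, the orexin precursor, stood at -0.012, -0.049 and -0.077 in the combination, -0.25, 0.00060 and 0.031 with mephedrone, 0.050, 0.014 and -0.00060 with ethanol, and 0.0016, -0.15 and 0.040 with saline. Mephedrone replicate 1 and saline replicate 2 were its low arrays, and all 3 combination arrays lay below all 3 ethanol arrays. Ethanol replicate 1, the lowest for Gh, was its highest. Next came saline replicate 3 and mephedrone replicate 3, the arrays with the most Gh. Pmch, the precursor of melanin-concentrating hormone, stood at 0.40, -0.0084 and -0.16 in the combination, -0.10, 0.0026 and 0.067 with mephedrone, 0.16, -0.0025 and 0.0025 with ethanol, and 0.089, -0.12 and -0.019 with saline. Combination replicates 1 and 3 were its highest and lowest arrays, so its whole range of 0.56 lay within a single group.

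Among all 19938 genes the SD over the 12 arrays had a median of 0.0686 and a 95th percentile of 0.167. Gh, with 0.843, ranked 5 in that order, behind Kcnj13 (1.65), Ttr (1.28), Snord53 (1.04) and Kl (0.913) and ahead of Sostdc1 (0.825). Of these neighbours Ttr, Kl and Sostdc1 are on the list of choroid plexus markers, the secretory epithelium of the brain ventricles. Prl followed at rank 575 with an SD of 0.199, then Trh at rank 1127 with 0.159, Pmch at rank 1402 with 0.148 and Pomc at rank 4105 with 0.0994. Hcrt (0.0876), Oxt (0.0858) and Avp (0.0592) ranked 5820, 6145 and 12525. Avp thus varied less than the median gene, while Gh and Prl were above the 95th percentile and Trh just under it.

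**Figure D3:**
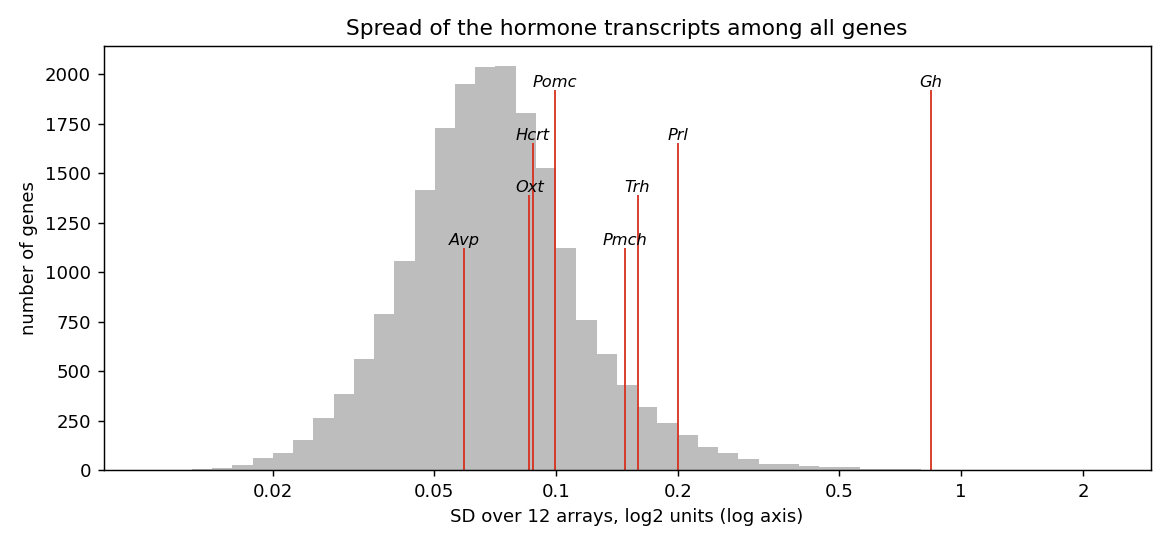
Number of genes (vertical axis) by their SD over the 12 arrays in log2 units (horizontal axis, logarithmic), for all 19938 genes in grey, with red lines at the 8 hormone transcripts (line heights only separate the names). Gh, at 0.843, lies far to the right, and Avp, at 0.0592, lies below the median of 0.0686.

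Group differences were fitted with limma over all genes, and none of the 8 transcripts passed an adjusted p of 0.05 (Benjamini-Hochberg over 19938 genes) in any comparison. In combination minus saline 0 of 8 passed, against 0.01% of all genes, and in combination minus ethanol 0 of 8, against 0.0251%. The share of all genes that passed was 0% in mephedrone minus saline, in ethanol minus saline and in combination minus mephedrone. The main effect of a drug sets the 2 groups that received it against the 2 that did not, with 6 arrays on each side. For mephedrone 0.115% of all genes passed and for ethanol 0%, as in the interaction, and the F test over the 4 groups passed 0.00502%. At an unadjusted p under 0.05 limma gave 2 of the 8, Gh and Prl, in the ethanol main effect, where 4.57% of all genes reached it. It gave 1 of 8 in combination minus mephedrone (Gh, against 3.31% of all genes), in combination minus ethanol (Trh, 9.73%), in the interaction (Trh, 3.54%) and in the F test (Gh, 8.35%). It gave 0 of 8 in combination minus saline (12.1% of all genes), mephedrone minus saline (7.23%), ethanol minus saline (4.98%) and the mephedrone main effect (12.6%). The members were chosen with the spread of Gh known, so nothing is read from these counts. The lowest adjusted p of any of the 8 was 0.433, for Trh in combination minus ethanol.

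For Gh the 6 arrays given ethanol ranged from -0.44 to -0.013 with a median of -0.15, and the 6 arrays without ethanol from 0.013 to 2.42 with a median of 0.72. These sets did not overlap, although the nearest arrays of each, combination replicate 2 and saline replicate 1, were close to each other. The means were -0.19 ± 0.15 with ethanol and 0.93 ± 0.89 without it (SD, n = 6 each). The fitted ethanol main effect was -1.12 (SE 0.338), or 0.461-fold, with an adjusted p of 0.941 in limma. Of all genes 0.0552% were lower with ethanol without overlap between the sets, and Gh was the member among them. In bulk tissue such as this, fewer cells of a type and less RNA per cell cannot be told apart.

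The size of this difference depended on a few arrays. Without mephedrone replicate 3 the ethanol main effect on Gh was -0.78, and without mephedrone replicate 2 it was -1.33. Gh was lower in the combination than with mephedrone, with a log2 difference of -1.21 (SE 0.478), with no overlap, a feature of 4.5% of all genes in that direction. That difference was -0.55 without mephedrone replicate 3. Against saline it was -0.90 in the combination and -1.02 with ethanol (SE 0.478 for both), each without overlap, as were 5.77% and 2.44% of all genes. Those values were -0.55 and -0.67 without saline replicate 3, and they share the saline arrays. None of these differences in Gh passed the test.

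Mephedrone alone gave no settled direction for Gh. The difference from saline was 0.31 (SE 0.478), and it was -0.35 without mephedrone replicate 3 and -0.067 without saline replicate 1. The mephedrone main effect was 0.21 (SE 0.338) and became -0.12 without mephedrone replicate 3. The combination differed from ethanol by 0.12 (SE 0.478), within the spread between arrays.

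Prl leaned the same way as Gh by a smaller amount. Its 6 arrays given ethanol ranged from -0.16 to 0.061 and its 6 arrays without ethanol from -0.051 to 0.51, so these sets overlapped. The ethanol main effect was -0.22 (SE 0.093), or 0.857-fold, with an adjusted p of 0.941 in limma, and ranged from -0.28 to -0.14 over 20 other settings. Prl differed from saline by -0.25 with ethanol, by -0.19 in the combination and by -0.00048 with mephedrone (SE 0.132 each). Pomc had an ethanol main effect of -0.082 (SE 0.053), which was -0.031 without saline replicate 3, the array highest in Pomc. Its difference of ethanol from saline was -0.11 (SE 0.076), and -0.012 without that array.

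**Figure D4:**
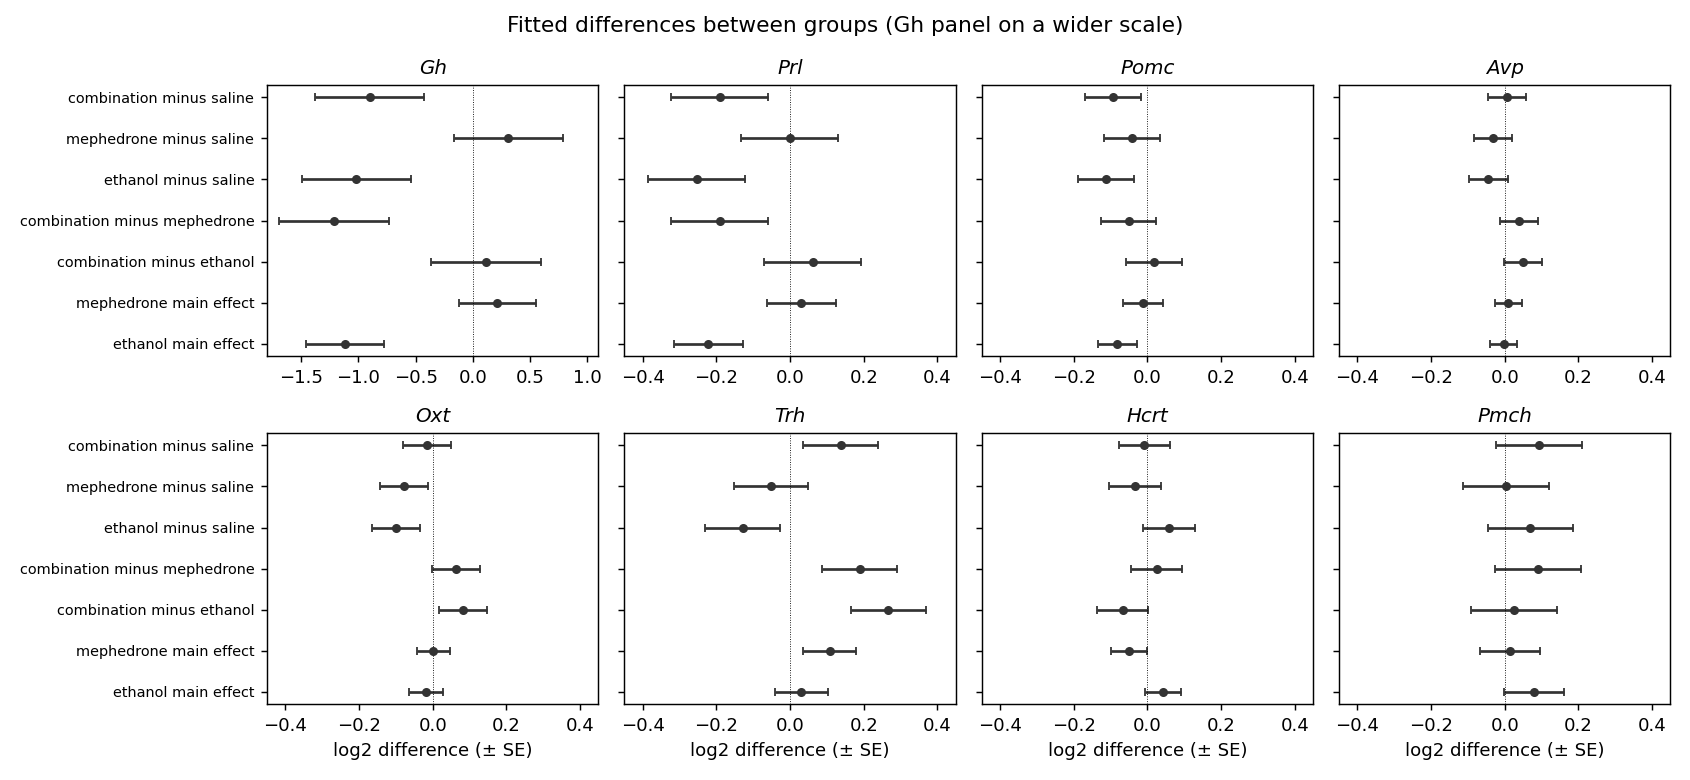
Fitted log2 differences with their standard errors (horizontal axes) for 7 comparisons (vertical axes) in each of the 8 hormone transcripts. The Gh panel has a wider axis, where the ethanol main effect lies at -1.12. In the other panels every point lies between -0.25 and 0.27.

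For Trh the combination differed from ethanol by 0.27 (SE 0.101), or 1.20-fold, and from mephedrone by 0.19 (SE 0.101), and neither passed. These differences lacked overlap, as did 6.44% and 4.88% of all genes in the same direction. From saline the combination differed by 0.14 (SE 0.101), with overlap. The interaction, which is the ethanol effect among mephedrone-treated mice less the effect among the rest, was 0.32 (SE 0.143) for Trh and did not pass. Without combination replicate 1 the difference from mephedrone was 0.14, and without mephedrone replicate 2 it was 0.12.

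In Hcrt the combination lay below ethanol by a log2 difference of -0.067 (SE 0.070), without overlap, as did 6.78% of all genes. For Avp, Oxt and Pmch no comparison separated the groups. Nor did any of the 8 separate in mephedrone minus saline, where 9.99% of all genes were higher and 4.74% lower without overlap, or in the mephedrone main effect, with 0.908% higher and 0.361% lower. None of the 8 was higher without overlap in ethanol minus saline (6.1% of all genes), in combination minus saline (11.7%) or in the ethanol main effect (0.0602%). The fitted differences of Avp, Oxt and Pmch lay between -0.10 (Oxt, ethanol minus saline) and 0.16 (Oxt, interaction). The Oxt interaction had an SE of 0.092, and with 3 arrays a group a change of this size could not be told from the spread between arrays.

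Markers of neighbouring tissues were set beside the hormone values on each array. The 20 hypothalamic regulators and markers averaged -0.0067 on mephedrone replicate 3, -0.089 on saline replicate 2 and -0.078 on saline replicate 3, the arrays highest in Gh. Their highest mean, 0.057, was on combination replicate 1, the array on which Avp, Oxt, Trh and Pmch were all highest. It was nearly as high, 0.051, on ethanol replicate 3, where Avp stood at -0.0056 and Trh at -0.17. Their lowest mean, -0.10, was on combination replicate 3, the array lowest in Oxt and Pmch, where Trh stood at 0.064. On saline replicate 2, with its low mean, Oxt stood at 0.12. The list shares Lhx8 (range 0.69) with a list of cholinergic neuron markers and Dlk1 (range 0.82) with the septal and ventral forebrain markers. The 13 choroid plexus markers averaged 1.58 on combination replicate 3, 0.79 on saline replicate 2 and 0.59 on ethanol replicate 1. They averaged -0.11 on mephedrone replicate 3 and -0.11 on saline replicate 3. With the choroid plexus mean as a covariate the ethanol main effect on Gh was -1.10, against -1.12 without it. Combination replicate 3 and ethanol replicate 1 stood apart from the other arrays over all probe sets, with SDs of 0.169 and 0.127 against 0.068 to 0.102 on the others. The part of other tissues in the hormone values was not tested.

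**Figure D5:**
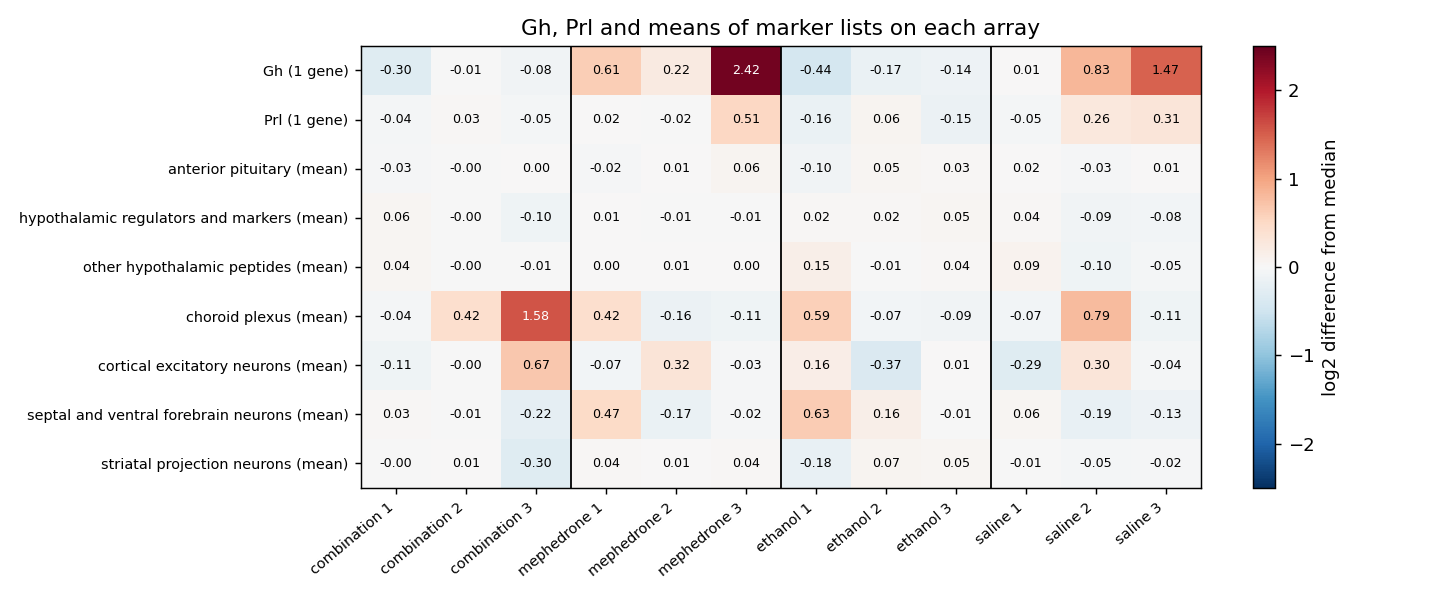
Log2 difference from the median on each of the 12 arrays (columns, by group) for Gh, Prl and the means of 7 marker lists (rows), with the value printed in each cell. Gh and Prl are highest on mephedrone 3, saline 3 and saline 2, whereas the choroid plexus mean is highest on combination 3 at 1.58.

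Each transcript was also set against the named genes outside the 8 for the likeness of its pattern over the 12 arrays, by Pearson correlation and as a description. The 8 themselves were left out of this ranking. Gh and Prl, at 0.939 with each other, would have held the first place for Gh and the second for Prl. Outside the 8, the nearest to Gh were Mos (0.920), a kinase of oocyte maturation, Spink12 (0.855), a serine protease inhibitor, and Cga (0.853). Mos and Spink12 had ranges of 0.23 and 0.092, far smaller than the 2.85 of Gh. The nearest to Prl were Glycam1 (0.945), a mucin-like glycoprotein, Adam7 (0.897) and Ubqlnl (0.867), each highest on mephedrone replicate 3. Nearest to Pomc were Itln1 (0.915), Fat2 (0.913) and Skint3 (0.884), each highest on saline replicate 3.

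The genes nearest to the hypothalamic transcripts were others again. They were Flywch2 (0.895), Pnliprp1 (0.879) and Utf1 (0.874) for Avp, and Kif17 (0.880), Fgfr4 (0.864) and Fastk (0.840) for Oxt. They were Suox (0.902), Skint9 (0.863) and Pi4kb (0.860) for Trh, and Fgf17 (0.923), Uts2 (0.906) and Trim6 (0.887) for Hcrt. For Pmch they were Zfp846 (0.886), Dcaf7 (0.875) and Inpp5e (0.873).

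Receptors for these hormones were examined next, since the striatum can receive the peptides without making them. Of 16 listed receptors 15 were measured. Prlr, the prolactin receptor, was not among the genes with a single symbol and has no value here. Trhr2, a receptor for thyrotropin-releasing hormone found in rodents, stood at 0.18, 0.12 and 0.23 on the combination arrays and at 0.031, 0.23 and 0.058 on the mephedrone arrays. It stood at -0.20, -0.21 and -0.19 on the ethanol arrays and at -0.19, -0.031 and -0.24 on the saline arrays. All 6 arrays given mephedrone lay above all 6 arrays without it, as was so for 0.908% of all genes.

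Trhr2 rose in the mephedrone main effect by 0.32 (SE 0.044, 1.25-fold, adjusted p = 0.0276 in limma), and it was the 1 of 15 receptors that passed there, against 0.115% of all genes (23). That count of genes lay between 2 without saline replicate 1 and 86 without ethanol replicate 1. The call was not firm: the adjusted p lay between 0.0524 and 0.0879 when combination replicate 1 or 2, any mephedrone replicate, ethanol replicate 2 or 3, or saline replicate 1 was left out, and it was 0.0607 after quantile normalisation. In the same comparison the median of the 15 receptors was -0.015, against 0.0038 for all genes, with 3 above 0 and 12 below. None of the 15 passed in any of the other 7 contrasts, where 0 to 3 had an unadjusted p under 0.05 in limma, as had 3.31% to 12.1% of all genes.

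The other receptors did not pass in any contrast. Mc4r, the melanocortin receptor through which Pomc products curb feeding, stood at -0.074, 0.050 and 0.074 in the combination, 0.093, -0.12 and -0.017 with mephedrone, 0.15, 0.017 and 0.024 with ethanol, and -0.053, -0.25 and -0.31 with saline. Saline replicates 2 and 3 were the low arrays, and the difference of ethanol from saline was 0.27 (SE 0.075), which did not pass. Trhr, the main receptor for thyrotropin-releasing hormone, ranged from -0.38 on combination replicate 3 to 0.17 on mephedrone replicate 3. Mchr1, the receptor for melanin-concentrating hormone, was also lowest on combination replicate 3, at -0.37. Oxtr, the oxytocin receptor, ranged from -0.25 to 0.085, and Ghr, the growth hormone receptor, from -0.12 to 0.14. The receptors Hcrtr1 and Avpr1a were the flattest, with ranges of 0.098 and 0.13.

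Genes that act downstream of growth hormone and prolactin showed no difference past the test. All 10 of those listed were measured, among them Igf1, which carries much of the action of growth hormone, and Socs2 and Cish, feedback inhibitors of its signalling. None of the 10 passed in any of the 8 contrasts, where 0 to 2 had an unadjusted p under 0.05 in limma, as had 3.31% to 12.6% of all genes. In the ethanol main effect their median was 0.0054, against 0.0088 for all genes. Igf1 ranged from -0.084 to 0.056 over the 12 arrays and was the flattest of the 10. The widest ranges were 0.88 for Bcl6 and 0.51 for Socs2. Ethanol differed from saline by 0.48 (SE 0.099) in Bcl6 and by -0.23 (SE 0.091) in Socs2, and neither passed. On each array the mean of the 10 lay between -0.071 and 0.040.

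The proteins that cut, amidate and pack peptide hormones in secretory granules were followed through 14 of 15 listed genes. None passed in any contrast, where 0 to 5 had an unadjusted p under 0.05 in limma, as had 3.31% to 12.6% of all genes. The 5 were reached in combination minus ethanol, where 9.73% of all genes did so, and in the mephedrone main effect, where 12.6% did. In the ethanol main effect all 14 lay above 0, with a median of 0.041 against 0.0088 for all genes, while 0 had an unadjusted p under 0.05 in limma, against 4.57% of all genes. They included Pcsk1 at 0.12 (SE 0.074), a convertase that cuts prohormones, and Chga at 0.13 (SE 0.137), a granule protein. Ethanol replicate 1, the array lowest in Gh and Prl and 1 of the 2 that stand apart, had the highest mean of these genes, 0.19.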

How the data were processed

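The authors deposited log2 values for 28853 probe sets on 12 arrays. RMA and the genome build mm8 are named per the submitters' processing notes, and GeneSpring GX 7.3.1 is named in the series design text. Each probe set is centred on its median over the arrays (within 7.02e-07), as read from the deposited values. No array was left out, and 0 values were missing. The annotation gave 21789 probe sets a single symbol, 1621 several and 5443 none, and probe sets were averaged per gene. The members and gene lists were chosen with earlier results of these data known.

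Group means were fitted with limma 3.58.1 in R 4.3.3 (two-sided moderated tests, 8 residual and 3.427 prior degrees of freedom), with Benjamini-Hochberg adjustment over 19938 genes and a threshold of 0.05. The fit was tested on simulated data. Errors beside differences are standard errors and those beside means are SDs. For arrays, their number limits the precision.

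The genes named are the 8 hormones, some of their receptors, and the 3 genes most correlated with each hormone. Predicted, olfactory, vomeronasal and small RNA genes were left out of those 3. List members that passed are named too, as are some, not all, of those that reached 1 log2 unit on an array. Other genes named were chosen after their values were seen. Replicate numbers were not treated as pairs in the reported fit: of 18 same-numbered pairs 7 correlated above 0.1 (-0.281 to 0.427). Arrays with unlike numbers were not compared in this way, so a batch shared by same-numbered arrays was not tested. Promoter sequences are RefSeq's (GRCm38.p6). Alternatives covered array weights, quantile normalisation, a replicate block, a choroid plexus covariate, the summary of probe sets, the variance prior, the arrays in the fit and each array left out. With 3 arrays a group, single outlying arrays could not be tested.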

Additional observations from a re-analysis of the deposited data

How the results depend on the processing

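None of the 8 hormone transcripts passed in any comparison under any of 21 other settings, including 0 with a replicate block. The lowest adjusted p over those settings was 0.118, for Trh in combination minus ethanol with array quality weights. Of 1320 member differences 1318 moved by less than the pooled SD within groups. The other 2 were those of Pmch without combination replicate 3 and ethanol replicate 1 together, at 0.20 in combination minus ethanol and 0.19 in the interaction. That allowance is wide, 0.70 for Gh, and it lets a sign turn. The Gh difference of mephedrone from saline fell from 0.31 to as low as -0.35. The Avp ethanol main effect changed sign in 9 of 20 settings, and Oxt in combination minus saline in 7 of 21. The ethanol main effect on Gh stayed below 0 in 20 settings. Leaving arrays out or weighting them could not have turned that sign, since every array given ethanol lay below every array without it. The receptors that passed in the mephedrone main effect numbered 1 (Trhr2) in the reported fit, 0 with a replicate block (adjusted p 0.0662), 0 with quantile normalisation, and 0 to 1 when single arrays were left out. With array quality weights 1 receptor (Trhr2, adjusted p 0.0452) passed in combination minus ethanol, and 1 granule gene (Vgf, 0.0354) in the mephedrone main effect. Granule genes past the test in combination minus ethanol numbered 0 to 1 when single arrays were left out, with 1 (Vgf, 0.0360) without saline replicate 1. The causes were not tested. Over all genes the mephedrone main effect passed 23 in the reported fit, 2 (without saline replicate 1) to 86 (without ethanol replicate 1) when single arrays were left out, 6 with a replicate block, 9 with quantile normalisation, 213 with combination replicate 3 and ethanol replicate 1 left out together, and 356 with array quality weights. A fit of only the arrays compared gives no value for the main effects, the interaction or the F test. A centred table gives no signal over background, so small changes of dim transcripts may be understated.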

Other observations

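Of 20 other listed peptides of the hypothalamus 19 were measured, and none passed in any contrast, where 0 to 1 had an unadjusted p under 0.05 in limma, as had 3.31% to 12.6% of all genes. Of the 19, 8 had a larger SD over the 12 arrays than Hcrt and 11 a smaller one, and 7 had a smaller SD than Avp. The 4 described here are among the wider ones. Tac2, the precursor of neurokinin B, stood at 0.35, 0.17 and -0.58 on the combination arrays and at 0.00043, -0.53 and -0.45 on the mephedrone arrays. It stood at 0.69, -0.00043 and 0.20 on the ethanol arrays and at 1.25, -1.26 and -0.37 on the saline arrays. Its highest and lowest arrays were both saline, and its SD of 0.658 ranked 12 among 19938 genes. Gal, the precursor of galanin, ranged from -0.44 on saline replicate 2 to 0.63 on ethanol replicate 1. Nts, the precursor of neurotensin, was highest on mephedrone replicate 1 at 0.66, with ethanol replicate 1 at 0.59. Adcyap1, the precursor of the peptide PACAP, was highest on ethanol replicate 1 at 0.70. On that array the 10 septal and ventral forebrain markers, a list that holds Nts too, averaged 0.63, the highest of the 12 arrays, and their part in these values was not tested.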
